A study of Mus musculus with 12 samples.

Results

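Genes that mark fibroblasts or build the extracellular matrix were followed in mouse mammary organoids kept for 7 days with increasing amounts of CHIR99021. The 10 genes are Pdgfra, Pdgfrb, Thy1, Postn, Fbn1, Mfap4, Pcolce, Sparc, Lox and Loxl1. They were found by gene symbol among the 25210 genes of the raw count table, and all 10 passed the filter on low counts that kept 15316 genes. The organoids were pieces of mammary epithelium from virgin female FVB/N mice, an inbred strain, aged 8 to 11 weeks. Every group was embedded in growth-factor-reduced Matrigel, a basement membrane gel, and fed a minimal medium. The 4 groups received the vehicle dimethyl sulfoxide (DMSO) or CHIR99021 in amounts of 1, 1.5 and 3 µM. This small molecule blocks the kinase GSK3 and was used to switch on WNT signalling through β-catenin (CTNNB1). Each of 3 animals gave 1 culture that was split over all 4 treatments, so there were 12 libraries of polyadenylated RNA, 3 per group. The labels mention no step that sorts cells by type.

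Fibroblasts make most of the interstitial matrix of the mammary gland and surround its ducts. They sense platelet-derived growth factors (PDGFs) through 2 receptor tyrosine kinases, which are standard markers of fibroblasts and of the mural cells around vessels. Matrix assembly takes place outside the cell: procollagen loses its end pieces, fibrillin forms microfibrils that hold elastin, and lysyl oxidases cross-link collagen and elastin.

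Library totals ran from 10.1 to 24.5 M counts (M, mega), so most of these genes were counted with little sampling error. Levels below are counts per M library counts (CPM), with library sizes adjusted by edgeR's TMM scaling. Markers of epithelium were present in every library, with a summed level of 4090 to 7100 CPM over 7 genes in DMSO. Markers of adipocytes, immune cells and endothelium were also present there, with 3450 to 9140, 268 to 2590 and 285 to 578 CPM. The bulk libraries therefore hold RNA of several cell types, and fewer cells of a type and less RNA per cell cannot be told apart.

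For 2 of the genes the bases just before the annotated start are shown. Promoter sequences were at hand for Pdgfra, Postn, Fbn1, Pcolce and Sparc only. The windows of Fbn1, Pcolce and Sparc overlap annotated exons and are not printed. The 2 are the defining fibroblast receptor and the gene whose remaining level at 3 µM had the widest relative spread between cultures, and their windows overlap no other annotated exon. The sequences are from RefSeq on GRCm38.p6, chr5:75152001-75152250 for Pdgfra and chr3:54360857-54361106 for Postn, plus strand, 5′ to 3′, with the motif TATAAA in capitals. The RefSeq starts lie 40 bases (Pdgfra) and 2 bases (Postn) before those of the count table.
Pdgfra: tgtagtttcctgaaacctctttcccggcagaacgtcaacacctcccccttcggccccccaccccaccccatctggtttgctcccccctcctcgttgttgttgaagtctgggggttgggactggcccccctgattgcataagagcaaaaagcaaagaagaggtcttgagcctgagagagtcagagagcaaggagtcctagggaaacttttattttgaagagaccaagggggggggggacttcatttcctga
Postn: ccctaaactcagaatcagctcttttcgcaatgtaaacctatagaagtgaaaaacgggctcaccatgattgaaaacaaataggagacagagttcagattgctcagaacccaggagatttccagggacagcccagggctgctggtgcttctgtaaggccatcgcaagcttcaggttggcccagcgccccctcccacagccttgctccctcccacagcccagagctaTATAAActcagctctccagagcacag
Both strands were searched for CTTTGA (the core bound by TCF/LEF factors, which carry the WNT signal), CACCTG (an E-box bound by Snail and ZEB factors) and TATAAA (the TATA box). The Pdgfra window held no match. The Postn window held 1 TATAAA match with its first base at position -26, where -1 is the base before the start. Among the windows searched but not printed, that of Pcolce held 1 CACCTG match at position -238. Those of Fbn1, of Sparc and of another Postn start, 1842 bases before that of the count table, held no match. Over 32851 promoter windows of the same length, 13.8% held CTTTGA, 17.2% held CACCTG and 12.4% held TATAAA. These matches describe letters only.

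The 10 genes together went from 4436, 7039 and 10050 CPM in cultures 1, 2 and 3 under DMSO to 372.7, 836.2 and 2163 CPM at 3 µM. At 1 µM the sums were 3483, 6083 and 9518 CPM, and at 1.5 µM they were 1705, 2684 and 6659 CPM. The DMSO and 3 µM sums did not overlap, and each of the 10 genes was lowest at 3 µM in all 3 cultures, as were 26.2% of all genes tested. The log2 difference at 3 µM was −2.95 as a mean over 3 cultures (SD 0.686), from −3.57 in culture 1 to −2.22 in culture 3. The exact two-sided permutation p was 0.1, which is the smallest that 3 against 3 libraries allow. The shuffling did not keep the libraries of a culture paired, so this p is given as description only. As a share of all counts, the genes held 0.46, 0.684 and 1.02% in DMSO and 0.0325, 0.0705 and 0.199% at 3 µM.

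**Figure D1:**
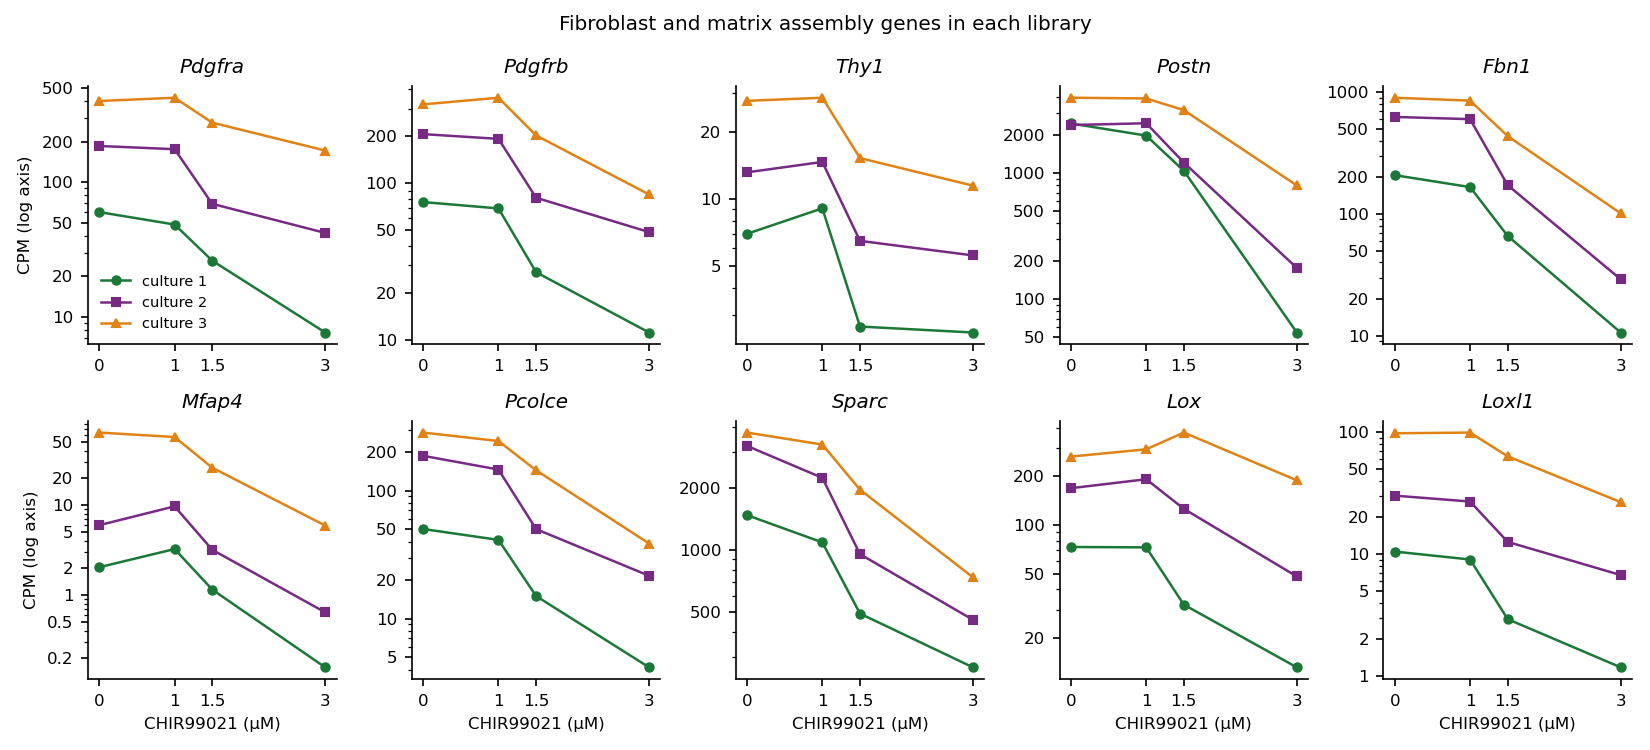
Level of each of the 10 genes in CPM (log axis) against the CHIR99021 dose in µM, with 1 point per library and lines joining the 4 libraries of a culture. In all 10 panels each culture is lowest at 3 µM, and culture 3 lies above culture 2 and culture 2 above culture 1 except for Postn in DMSO.

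For single genes, 2 edgeR quasi-likelihood tests were read side by side. The first compares group means. The second adds the culture as a block and so compares each treated library with the libraries of the same animal. A gene is called at an adjusted p under 0.05. At 3 µM, 4 of the 10 genes were called lower (Postn, Fbn1, Pcolce and Sparc), where 27.7% of all genes tested were. Without culture 2 in every group, 0 of the 10 were called (adjusted p at least 0.117). That fit holds 8 libraries, and the share of all genes it called is not given here. Counts fell in other lists too, as from 7 to 1 for endothelial markers, while that of contractile markers stayed at 6. With the block all 10 were called lower, against 34.8% of all genes, and 9 or 10 were with any 1 culture left out. Each gene was below its own DMSO library in all 3 cultures, which 39.0% of all genes were. The 4 called genes were also the ones whose DMSO and 3 µM libraries did not overlap, as was the case, with 3 µM lower, for 29.9% of all genes.

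Pdgfra, the receptor for PDGF-A, PDGF-B and PDGF-C chains and the usual marker of mammary fibroblasts, lies on chromosome 5 (75152291 to 75198204 on the plus strand of GRCm38, ENSMUSG00000029231). Its level in cultures 1, 2 and 3 was 60.1, 186 and 401 CPM in DMSO and 48.6, 176 and 424 CPM at 1 µM. It was 26.2, 69.2 and 277 CPM at 1.5 µM and 7.68, 42.1 and 172 CPM at 3 µM. Culture 3 at 3 µM was close to culture 2 in DMSO, so the groups overlapped although every culture was lowest at 3 µM. The remaining level was 12.8, 22.7 and 42.8% of the culture's own DMSO level. The log2 change of the group means was −1.55 ± 1.21 (SE; edgeR adjusted p = 0.293). With the block it was −2.02 ± 0.276 (edgeR adjusted p = 0.00019).

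Pdgfrb, the receptor for PDGF-B and PDGF-D that mural cells and fibroblasts share, lies on chromosome 18 (61045150 to 61085061, ENSMUSG00000024620). It was counted at 76.0, 207 and 321 CPM in DMSO and at 69.2, 193 and 354 CPM at 1 µM. At 1.5 µM it stood at 27.0, 81.0 and 203 CPM, and at 3 µM at 11.1, 48.8 and 85.0 CPM. Culture 3 at 3 µM lay above culture 1 in DMSO, the only overlap between these groups. The log2 change was −2.06 ± 0.925 (edgeR adjusted p = 0.0801), and with the block −2.24 ± 0.18 (adjusted p = 8.9e-06). DESeq2 called Pdgfrb without a block (0.0415), as did edgeR without culture 1 in every group (0.0288). The ratio of Pdgfrb to Pdgfra within a library was 1.26, 1.11 and 0.803 in DMSO and 1.44, 1.16 and 0.495 at 3 µM. It was thus lower at 3 µM in culture 3 alone.

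Thy1, a small surface glycoprotein used to sort fibroblasts and other stromal cells, lies on chromosome 9 (44043384 to 44048579, ENSMUSG00000032011). It was the lowest of the 10 in DMSO once divided by exon length, with a mean of 5.33 CPM per kb. The DMSO libraries had 6.98, 13.2 and 27.7 CPM, and those at 1 µM had 9.09, 14.7 and 28.6 CPM, higher in every culture. At 1.5 µM the values were 2.67, 6.49 and 15.3 CPM, and at 3 µM 2.51, 5.58 and 11.5 CPM. Most of the drop lay between 1 and 1.5 µM. The 3 cultures kept similar shares of their DMSO level, 36, 42.3 and 41.3%, and its smallest share was the highest among the 10 genes. The change with the block was −1.31 ± 0.159 on the log2 scale (edgeR adjusted p = 8.42e-05), and without it −1.29 ± 0.765 (adjusted p = 0.171).

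Postn (chromosome 3, 54361109 to 54391034, ENSMUSG00000027750) encodes periostin, a matricellular protein that binds collagen and integrins and helps lysyl oxidase cross-linking. Its DMSO level was 2470, 2400 and 3950 CPM, and it stood at 1980, 2480 and 3900 CPM at 1 µM. Levels were 1040, 1210 and 3150 CPM at 1.5 µM and 54.5, 177 and 797 CPM at 3 µM. All 3 µM libraries were below all DMSO libraries. Postn fell 8.57-fold at 3 µM (log2 −3.10 ± 0.855, edgeR adjusted p = 0.0107). The cultures kept 2.21, 7.38 and 20.2% of their DMSO level, the widest relative spread of the 10. Most of the drop came above 1.5 µM, with a log2 difference of −2.39 ± 0.83 between 3 and 1.5 µM (adjusted p = 0.0533, and 0.00289 with the block).

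Sparc (chromosome 11, 55394500 to 55420080, ENSMUSG00000018593) encodes osteonectin, a collagen-binding matricellular protein also made by endothelial cells and by other cells that lay down basement membrane. It had the highest level per length of the 10 in DMSO, with a mean of 743 CPM per kb against 338 for Postn, next in that order. The libraries held 1480, 3220 and 3740 CPM in DMSO and 1090, 2250 and 3270 CPM at 1 µM. They held 490, 955 and 1970 CPM at 1.5 µM and 268, 457 and 736 CPM at 3 µM. Sparc was lower at each successive dose in every culture, and the DMSO and 3 µM groups were apart. Sparc fell 5.78-fold at 3 µM (log2 −2.53 ± 0.62, edgeR adjusted p = 0.00577). Its remaining shares of 18.1, 14.2 and 19.7% were among the most even across cultures.

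The makeup of the summed level changed with these 2 genes. Postn made up 55.7, 34.0 and 39.3% of the sum in DMSO and 14.6, 21.1 and 36.9% at 3 µM. Sparc made up 33.4, 45.7 and 37.2% in DMSO and 71.8, 54.6 and 34.0% at 3 µM. The ratio of Postn to Sparc was 1.67, 0.744 and 1.06 in DMSO and 0.204, 0.387 and 1.08 at 3 µM. It was lower at 3 µM in cultures 1 and 2 and about level in culture 3. Leaving Postn out, the summed level of the other 9 genes still differed by a log2 of −2.54 at 3 µM. The exact permutation p was again the smallest possible, 0.1.

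Fbn1 (chromosome 2, 125300594 to 125507993, minus strand, ENSMUSG00000027204) encodes fibrillin-1, the backbone of microfibrils, which also hold latent TGF-β. DMSO libraries had 208, 626 and 900 CPM, close to the 166, 600 and 852 CPM at 1 µM. Values were 65.8, 172 and 435 CPM at 1.5 µM and 10.6, 29.0 and 101 CPM at 3 µM. Every 3 µM library lay below every DMSO library. Fbn1 fell 12.3-fold at 3 µM (log2 −3.62 ± 1.03, edgeR adjusted p = 0.0123), the largest log2 change of the 10. The cultures kept 5.08, 4.63 and 11.3% of their DMSO level.

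Mfap4 (chromosome 11, 61485431 to 61488900, ENSMUSG00000042436) encodes a microfibril-associated glycoprotein of elastic fibres. It was the gene with the widest range over the 12 libraries, 409-fold from the lowest to the highest CPM. In DMSO its values were 2.04, 5.99 and 64.2 CPM, and at 1 µM 3.25, 9.70 and 57.3 CPM. They were 1.15, 3.19 and 26.1 CPM at 1.5 µM and 0.157, 0.642 and 5.93 CPM at 3 µM. Culture 3 at 3 µM was close to culture 2 in DMSO, so the groups overlapped. The counts behind the 3 µM values were 2, 10 and 86, so culture 1 rests on very few reads. The remaining shares were nonetheless alike, 7.67, 10.7 and 9.24%. The log2 change was −3.42 ± 1.77 (edgeR adjusted p = 0.121), and −3.31 ± 0.223 with the block (adjusted p = 3.31e-06). It was called on group means without culture 3 in every group (0.0314). Exons of Mfap4 overlap those of Mapk7 on the other strand in GENCODE M21, and how strand was used in counting is not stated. Mapk7 had 890 counts in the DMSO libraries and 936 at 3 µM.

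Pcolce (chromosome 5, 137605103 to 137613784, minus strand, ENSMUSG00000029718) encodes the procollagen C-endopeptidase enhancer, which speeds removal of the procollagen C-terminal piece by BMP1. Its levels were 50.1, 187 and 284 CPM in DMSO and 41.2, 146 and 244 CPM at 1 µM. Levels at 1.5 µM were 15, 50 and 144 CPM, and at 3 µM 4.16, 21.6 and 38.6 CPM. The highest 3 µM library was below the lowest DMSO library. Pcolce fell 8.06-fold (log2 −3.01 ± 1.06, edgeR adjusted p = 0.0322). This call was the least firm of the 4: it was lost without culture 1 at 3 µM (0.0835), culture 2 at 3 µM (0.0863), culture 2 in DMSO (0.0605) or culture 3 in DMSO (0.0895), and also with no filter on low counts (0.0692). With the block the change was −3.15 ± 0.197 (adjusted p = 2.54e-06). Exons of Pcolce overlap Fbxo24, whose total was 0.676% of that of Pcolce.

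Lox (chromosome 18, 52516069 to 52529867, minus strand, ENSMUSG00000024529) encodes lysyl oxidase, the copper enzyme that starts collagen and elastin cross-links. The DMSO libraries held 73.2, 169 and 265 CPM and the 1 µM libraries 72.8, 192 and 294 CPM. The 1.5 µM libraries held 32.2, 126 and 373 CPM, and the 3 µM libraries 13.2, 48.1 and 189 CPM. Lox in culture 3 was thus highest at 1.5 µM, while cultures 1 and 2 were already below their DMSO level there. The cultures kept 18, 28.4 and 71.2% at 3 µM, and the groups overlapped. The log2 change was −1.02 ± 1.02 (edgeR adjusted p = 0.409), the smallest of the 10 on group means, and −1.54 ± 0.366 with the block (adjusted p = 0.00464). At 1.5 µM the change was 0.07 ± 1.00 on group means and −0.38 ± 0.353 with the block, neither called. Without culture 3 at 1.5 µM it was −1.09.

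Loxl1 (chromosome 9, 58287723 to 58313212, minus strand, ENSMUSG00000032334) encodes the lysyl oxidase-like enzyme that acts on elastin in elastic fibres. It was counted at 10.5, 30.2 and 98.0 CPM in DMSO and at 9.04, 27.0 and 99.3 CPM at 1 µM. It was counted at 2.93, 12.6 and 63.4 CPM at 1.5 µM and at 1.18, 6.74 and 26.7 CPM at 3 µM. Culture 3 at 3 µM lay among the DMSO values of cultures 1 and 2. The log2 change was −2.0 ± 1.36 (edgeR adjusted p = 0.23), and −2.25 ± 0.231 with the block (adjusted p = 3.47e-05). The ratio of Loxl1 to Lox within a library was 0.144, 0.178 and 0.37 in DMSO and 0.0893, 0.14 and 0.142 at 3 µM, lower in each culture. The ratio of Fbn1 to Lox went from 2.85, 3.70 and 3.40 to 0.804, 0.603 and 0.538, lower in all 3 cultures. Fbn1 had the largest and Lox the smallest group-mean change of the 10 genes, so this lower ratio restates those changes.

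**Figure D2:**
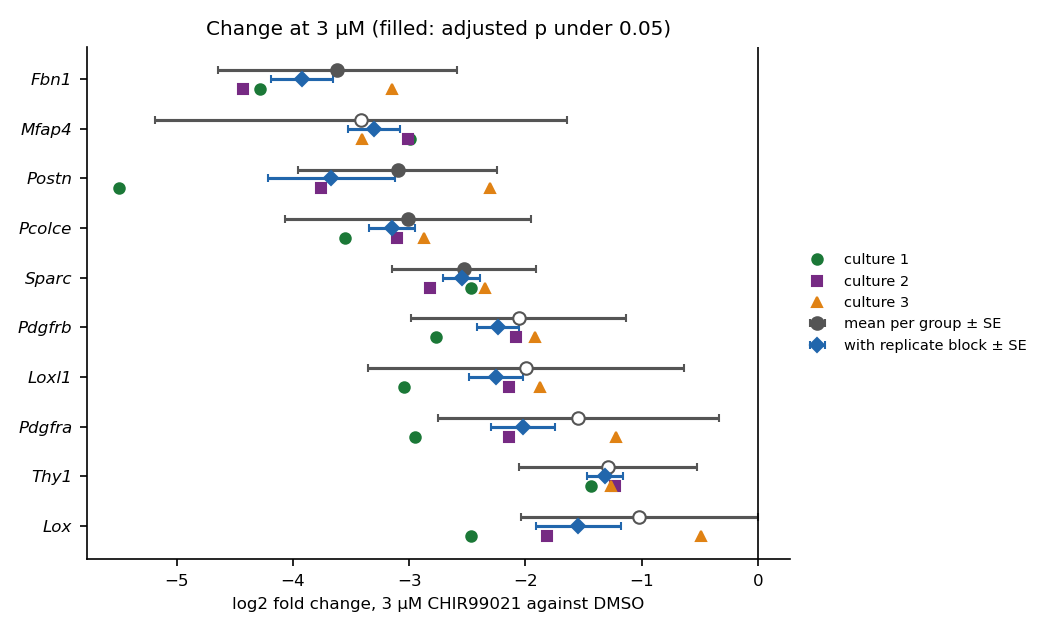
Log2 change at 3 µM against DMSO for each of the 10 genes: grey circles are the group-mean fit with its SE (filled where called), blue diamonds the fit with the culture block with its SE, and coloured symbols the 3 cultures against their own DMSO library (log2 CPM with a prior count of 2). The group-mean intervals are wider than the block intervals for every gene, and Postn, Lox and Pdgfra have the widest spread between cultures.

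The steps between doses were read separately. At 1 µM none of the 10 genes was called by edgeR, with or without the block, where 0.242% and 5.61% of all genes were. None had an unadjusted p under 0.05 in the group-mean fit, and DESeq2 called none. Their log2 changes ran from −0.35 (Sparc) to 0.14 (Lox), and 19 of 30 gene and culture pairs were below DMSO.

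At 1.5 µM the group-mean fit called 0 of the 10 genes, where 11.8% of all genes were called lower; Sparc had the lowest p, at 0.0527 unadjusted and 0.129 adjusted, and DESeq2 called Sparc alone (0.0456). Without culture 3 at 1.5 µM edgeR also called Sparc (adjusted p = 0.0484). With the block 8 were called lower, against 24.3% of all genes. The 8 were all but Postn and Lox, with log2 changes from −1.05 (Thy1) to −1.54 (Fbn1). From 1 to 1.5 µM the group-mean fit called none (0.992% of all genes were lower, and none of the 10 had an unadjusted p under 0.05), and the block fit called the same 8 genes lower, against 10.5%. That block count was 4 without culture 1 and 0 without culture 2. From 1.5 to 3 µM the group-mean fit again called none, where 12.7% of all genes were called lower. Postn (0.0161) and Fbn1 (0.0426) had an unadjusted p under 0.05 there, and DESeq2 called both. Without culture 3 at 3 µM edgeR called both as well. With the block 9 were called, all but Thy1, against 22.0% of all genes, and 5 without culture 2. Levels were lower at 3 than at 1.5 µM in every culture for all 10 genes. At least 26.2% of all genes tested shared this, as that share was lowest at 3 µM in every culture. Levels were lower at 1.5 than at 1 µM in every culture for 9, all but Lox, and no share of all genes was computed for that step.

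As a slope over dose, 4 genes were called lower, the same 4 as at 3 µM, where 28.0% of all genes were. Their log2 slopes per µM were −1.11 ± 0.325 for Postn, −1.32 ± 0.37 for Fbn1, −1.07 ± 0.346 for Pcolce and −0.89 ± 0.201 for Sparc, with edgeR adjusted p from 0.00251 to 0.019. The Pcolce slope was not called without culture 2 at 3 µM (0.054) or culture 3 in DMSO (0.0517), and 0 slopes were called without culture 2 in every group. Pdgfrb missed narrowly (−0.76 ± 0.307, 0.0512). Its slope was called with library size scaling (0.043) or RLE size factors (0.0471), and without culture 1 in DMSO (0.0269), culture 3 at 1 µM (0.0481), culture 1 or 3 at 1.5 µM (0.0479 and 0.0469) or culture 3 at 3 µM (0.0461). The Mfap4 slope was called without culture 1 in DMSO (0.0491). With the block all 10 slopes were called lower, against 32.3% of all genes.

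All 10 genes were called for a difference between cultures in a fit with group and culture, against 28.8% of all genes (edgeR adjusted p from 9.19e-06 for Mfap4 to 0.0306 for Postn). For 9 of the 10 the order was culture 3, then 2, then 1 at all 4 doses, an order that 5.81% of all genes tested had. The exception was Postn, for which culture 1 was just above culture 2 in DMSO. Fitted over all doses, culture 3 exceeded culture 1 by 24.1-fold for Mfap4, 13.5-fold for Loxl1, 10.5-fold for Pdgfra, 7.22-fold for Pcolce and 6.99-fold for Lox. The smaller ratios were 6.16 for Fbn1, 5.85 for Pdgfrb, 4.14 for Thy1, 3.32 for Postn and 3.04 for Sparc. The 2 matricellular genes thus had the smallest ratios. Culture 2 exceeded culture 1 by between 1.32-fold (Postn) and 3.77-fold (Pcolce). The sample titles mark cultures 1, 2 and 3 as med, min and max, and the labels do not explain these words. Whatever they name cannot be told apart from the animal.

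**Figure D3:**
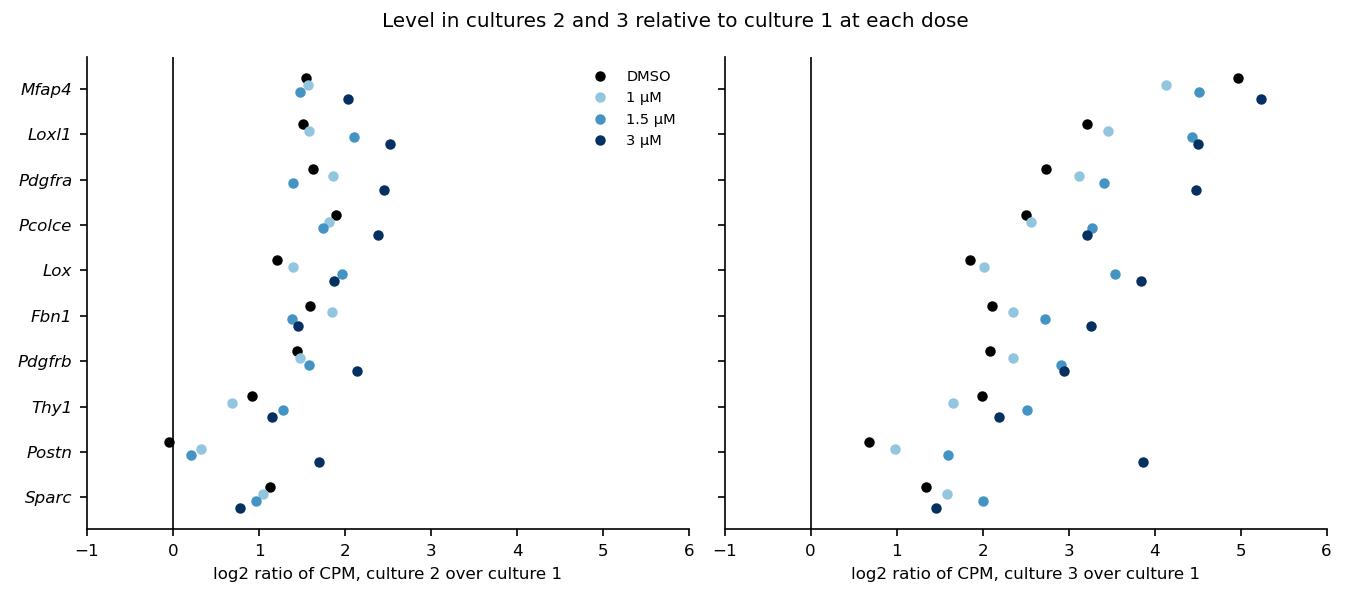
Log2 ratio of culture 2 and of culture 3 to culture 1 at each CHIR99021 dose in µM, for each of the 10 genes. All ratios are above 0 but that of culture 2 for Postn in DMSO. For culture 3 each of the 10 genes has its highest ratio at 1.5 or 3 µM. For culture 2 all but Fbn1 and Sparc do.

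The cultures also kept different shares of their DMSO level at 3 µM. Culture 1 kept the smallest share for 8 of the 10 genes and culture 3 the largest for 8. How many of all genes had this order was not computed. Each share compares 1 library with 1 library, and the 10 genes varied together, so they are not separate observations. The slope of Lox per µM was −0.90, −0.67 and −0.17 in cultures 1, 2 and 3, that of Postn −1.96, −1.38 and −0.82, and that of Pdgfra −1.03, −0.79 and −0.45. The difference in slope was not called for any of the 10 genes, nor for any gene in the table (0 of 15316). The lowest unadjusted p among the 10 was 0.0816 for Lox in edgeR, so none was under 0.05.

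Across the 12 libraries the 10 genes varied together, with Pearson r between pairs from 0.754 to 0.993 and a median of 0.937 over 45 pairs on log2 CPM. The libraries share dose and animal, so these values describe the pattern only. Outside the 10, the genes most like Pdgfra were Col1a2 (r = 0.992) and Col1a1 (0.988), the chains of type I collagen, then Fstl1 (0.988), Colec12 (0.987) and Ednra (0.986), out of 14728 genes compared. The single most alike gene was Rcn3 for Pdgfrb (0.994), Spon1 for Thy1 (0.978) and for Loxl1 (0.993), Rbms3 for Postn (0.994) and Tbx15 for Fbn1 (0.995). It was Prr33 for Mfap4 (0.985), Nova1 for Pcolce (0.992), Cd248 for Sparc (0.994) and Zfpm2 for Lox (0.984).

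Other genes of the same processes were read at 3 µM, where the median log2 change of all genes was −0.03 and that of the 10 genes −2.29. Of 15 further microfibril and elastic fibre genes, 8 were called lower and 0 higher, with a median of −1.87, where 27.7% of all genes were called lower. With the block 13 were (34.8% of all genes), and without culture 2 in every group 2 were. Efemp1, fibulin-3, fell by 4.45 on the log2 scale (edgeR adjusted p = 0.011), and Fbn2, fibrillin-2, by 3.85 (0.000335). Mfap2, a fibrillin-binding glycoprotein, had a change of −3.18 (0.0417). The Mfap2 call was lost without any of 6 libraries (adjusted p from 0.052 to 0.147): cultures 2 and 3 in DMSO, culture 2 at 1 and at 1.5 µM, and cultures 1 and 2 at 3 µM.

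Of 19 further genes for procollagen folding and processing, 7 were called lower and 0 higher, with a median of −0.68, where 27.7% of all genes were called lower. With the block 11 were lower (34.8% of all genes were) and 2 higher, the 2 being Plod2 and P4ha2, hydroxylases of collagen lysines and prolines, with 0.92 and 1.09. Neither was called with the block without culture 2 (0.0628 and 0.0973), nor without culture 1 (0.0582 and 0.108). Fkbp14, a folding enzyme of the endoplasmic reticulum, fell by 2.12 (edgeR adjusted p = 0.0112) and Lepre1, a prolyl 3-hydroxylase, by 2.25 (0.0129). Adamts2, which removes the procollagen N-terminal piece, had −3.24 (0.0339). That call was lost without culture 2 or 3 in DMSO or culture 1 or 2 at 3 µM (0.0539 to 0.105), and without culture 2 at 3 µM only 3 of the 19 were called lower. Without culture 1 at 3 µM, or culture 2 or 3 in DMSO, 4 were, and without culture 2 in every group 0 were.

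The 3 other lysyl oxidases were not called in the group-mean fit, with a median of −0.12. With the block Loxl3 was lower (−2.01, edgeR adjusted p = 0.00444), Loxl4 was higher (1.16, 0.0026), and Loxl2 was not called (−0.61, 0.235). With the block without culture 2 neither Loxl3 (0.0797) nor Loxl4 (0.0537) was called. Loxl4 stood at 2.44, 3.35 and 5.22 CPM in DMSO and at 3.45, 8.98 and 14.4 CPM at 3 µM. Without culture 3 at 3 µM, Loxl3 alone was called on group means. Among the 4 PDGF ligand genes Pdgfc (−0.57, 0.0181) and Pdgfd (−2.74, 0.035), the ligands that need proteolysis to become active, were called lower and the other 2 were not, with a median of −0.32. Pdgfc was not called without culture 1 in DMSO (0.0742) or culture 3 at 3 µM (0.052). Pdgfd was not called without cultures 2 or 3 in DMSO, culture 2 at 1 µM, or cultures 1 or 2 at 3 µM (0.0502 to 0.107), and none of the 4 was called without culture 2 in every group.

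Of 13 other matricellular genes, 4 were called lower and 1 higher, with a median of −0.98, and 4 of 13 is close to the 27.7% of all genes called lower. With the block 6 were lower (34.8% of all genes were) and 2 higher. Without culture 2 in every group 2 were lower. Smoc1, a SPARC-related calcium-binding protein, fell by 6.05 (edgeR adjusted p = 8.03e-05), Sparcl1, the close relative of Sparc, by 3.67 (2.04e-05), and Spock2 by 2.92 (0.0106). The one that rose was Tgfbi, an integrin-binding protein induced by TGF-β, with 2.54 (0.00101). Named after its values were seen, Tgfbi went from 22.8, 31.3 and 85.3 CPM in DMSO to 249, 261 and 300.0 CPM at 3 µM, opposite in direction to Postn and Sparc.

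Of 14 other fibroblast markers, 4 were called lower and 1 higher, with a median of −1.54, and 4 of 14 is close to the 27.7% of all genes called lower. With the block 11 were lower (34.8% of all genes were) and 2 higher, Dpp4 and Twist2. Both higher calls were lost with the block without culture 2 (adjusted p = 0.116 and 0.199). Fap, a surface protease of activated fibroblasts, fell by 3.01 (edgeR adjusted p = 0.000874). Vim, the intermediate filament vimentin, had −2.21 (0.0332) and Cd34, a progenitor surface protein, −2.04 (0.0284). Vim and Cd34 were each not called without cultures 2 or 3 in DMSO or cultures 1 or 2 at 3 µM (0.0538 to 0.0919). The same libraries decided the count, which was 2 or 3 genes in all without any of them, and 1 without culture 2 in every group. Dpp4, a surface peptidase, was the gene called higher (1.41, 0.0276), and this was lost without cultures 1 or 2 in DMSO or at 3 µM (0.0737 to 0.0919).

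**Figure D4:**
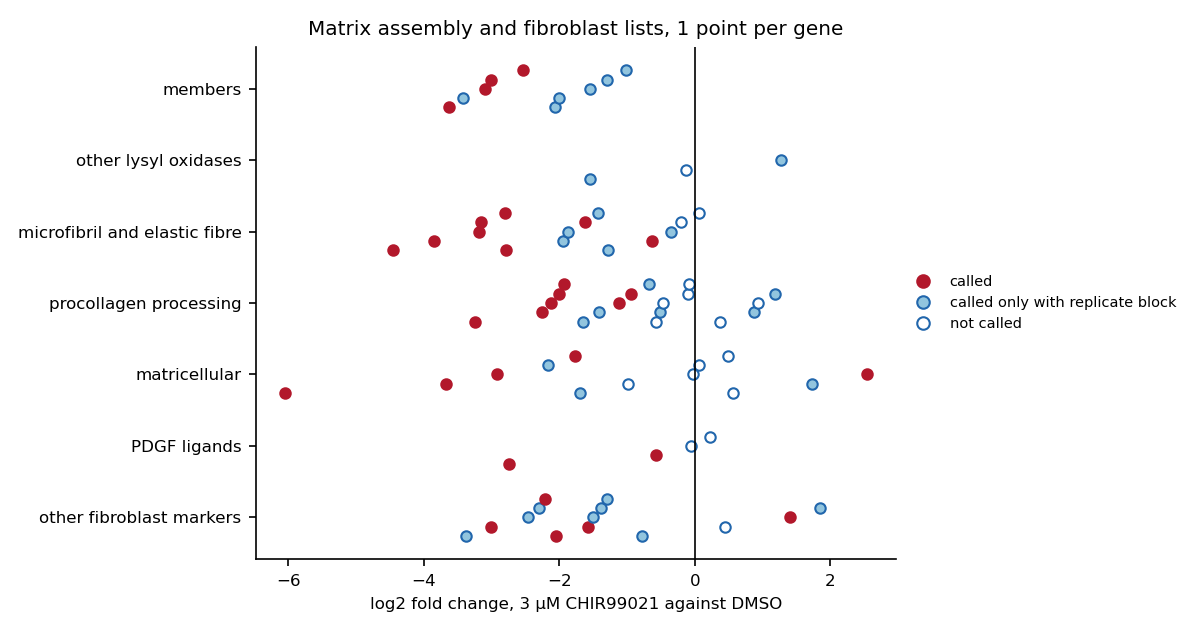
Log2 change at 3 µM against DMSO for the genes of each list (1 symbol per gene, group-mean fit): red where called, light blue where called only with the culture block, white where not called. The 10 genes lie between −3.62 and −1.02, and the other lists shown are those of matrix assembly and other fibroblast markers.

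Markers of other cell types moved with dose as well. At 3 µM all 6 adipocyte markers (median log2 −5.55), all 7 endothelial markers (−2.84), 5 of 6 immune markers tested (−4.30), 5 of 7 mural markers (−2.36) and all 6 contractile myoepithelial markers (−4.92) were called lower by edgeR, where 27.7% of all genes were. Without culture 2 in every group the counts were 5 adipocyte, 1 endothelial, 1 immune, 1 mural and 6 contractile markers. With the block without culture 2 they were 6, 7, 5, 6 and 6. The summed adipocyte level was between 3450 and 9140 CPM in DMSO and between 37.0 and 242 CPM at 3 µM. Endothelial sums were between 285 and 578 CPM and between 32.7 and 98.0 CPM, and immune sums between 268 and 2590 CPM and between 39.8 and 118 CPM. Mural sums were between 497 and 728 CPM in DMSO and between 214 and 315 CPM at 3 µM, and contractile sums between 687 and 1030 CPM and between 18.4 and 33.2 CPM. The other fibroblast markers summed to between 2140 and 21100 CPM in DMSO and between 242 and 4930 CPM at 3 µM. None of these markers was at 0 in all 3 libraries of DMSO or of 3 µM. Only 3 mural markers were called without culture 3 in DMSO, culture 1 at 3 µM or culture 2 at 3 µM.

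Epithelial markers summed to between 16500 and 33200 CPM at 3 µM, with Krt14 (3.84, edgeR adjusted p = 1.86e-05) and Krt5 (3.42, 1.62e-05), keratins of basal cells, higher. Krt19, a luminal keratin, was lower (−2.11, 0.000248), and in all 2 of 7 were called higher and 3 lower. Other named markers called lower were Cidec (−6.85), Adipoq (−6.12) and Plin1 (−5.58) of adipocytes, and Tek (−3.73), Kdr (−3.23) and Cldn5 (−2.97) of endothelium. Among immune markers they were Emr1 (−4.41), Ptprc (−4.40) and Lyz2 (−4.34), and among contractile markers Oxtr (−7.10), Cnn1 (−5.54) and Myh11 (−5.25). Of mural cells they were Rgs5 (−4.68), Cspg4 (−2.56) and Des (−4.02), and the Des call was lost without culture 3 in DMSO or cultures 1 or 2 at 3 µM (0.0666 to 0.0766).

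The culture order was shared in part. In DMSO the order culture 3, 2, 1 held for 9 of the 10 genes and for 19.9% of all genes tested. It held for 10 of 15 microfibril, 13 of 19 procollagen, 4 of 13 matricellular, 3 of 3 lysyl oxidase and 1 of 4 PDGF ligand genes, and for 10 of 14 other fibroblast markers. Of other cell types it held for 6 of 6 immune, 4 of 7 mural, 4 of 6 contractile, 1 of 7 endothelial, 0 of 6 adipocyte and 0 of 7 epithelial markers. The adipocyte sum was highest in culture 2 and lowest in culture 3 at every dose. Culture 3 at 3 µM, in which 8 of the 10 genes kept the largest share of their DMSO level, differed between lists. The immune, adipocyte and contractile sums kept their smallest share there. The sums of the other fibroblast and endothelial markers kept their largest share there, as did the mural sum, nearly level with culture 1. The part of other cell types in the levels of the 10 genes was not tested.

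**Figure D5:**
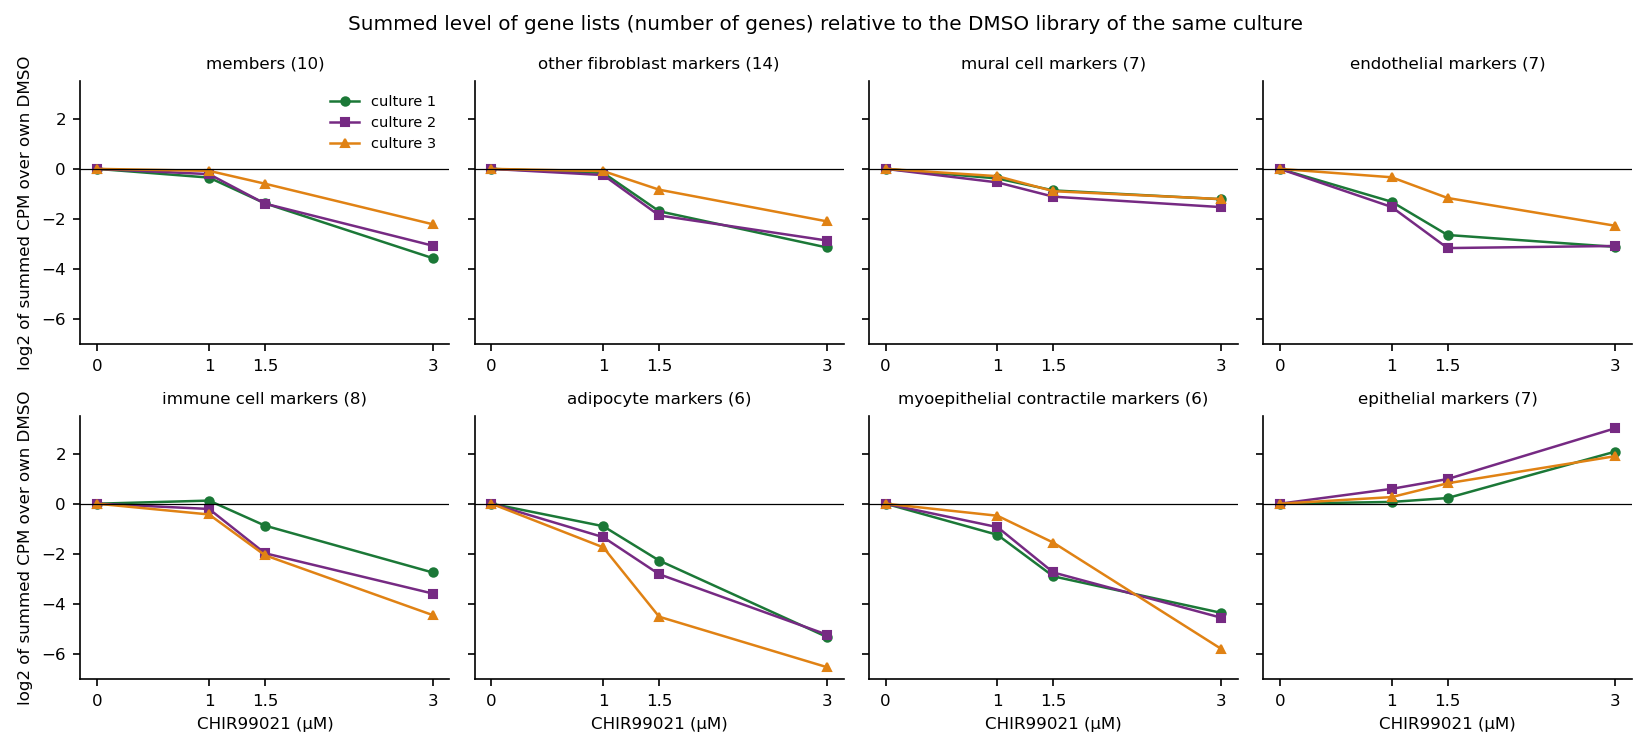
Summed CPM of 8 gene lists relative to the DMSO library of the same culture (log2), by CHIR99021 dose in µM and culture, with the 10 genes in the panel headed members. The adipocyte and contractile lists drop below the 10 genes at 3 µM in all cultures, and the epithelial list is above its DMSO level.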

How the data were processed

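Polyadenylated RNA of 12 organoid libraries was sequenced with a stranded TruSeq protocol on an Illumina HiSeq, per the labels' protocols. The authors deposited raw read counts per Ensembl gene (25210 genes) and a table of log2 values. The deposited log2 values equal log2 of counts scaled to 10 M (mega) per library plus 1 (0 differed by more than 1e-06), so tests used the deposited counts. TopHat2 2.1, Bowtie 1.1.0, HTSeq, DESeq2, GRCm38 and mm10 are named in the submitters' processing notes; the strand setting and annotation release are not given in the sources used here. Coordinates are those of the deposited table, and 95.3% of the 24902 identifiers shared with GENCODE M21 (GRCm38) start within 1000 bp.

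The 10 genes, the 12 other lists and the tests were chosen with earlier results of these data known. Genes were filtered with filterByExpr (15316 kept), scaled by TMM and tested with edgeR 4.0.16 (R 4.3.3; glmQLFit, glmQLFTest, two-sided) over all 4 groups, with Benjamini-Hochberg adjustment at 0.05 over all genes tested. Replicate numbers are animals, per the labels, and same-numbered libraries deviated together (r from 0.177 to 0.84 in 18 pairs), so a fit with the replicate as a block stands beside the one without. The titles also give each replicate a suffix (med, min or max) that the labels do not explain. These suffixes were not used and cannot be told apart from the animal. Dose slopes, culture differences and slope differences used the same test. Each SE was derived from the test, as the absolute log2 change divided by the square root of its quasi-likelihood F statistic. Correlations used log2 CPM with a prior count of 2 and levels per kb used GENCODE M21 exon lengths. Named genes were all 10, and per list up to 3 called genes with the largest change at 3 µM, a mean of at least 10 counts and the same direction in all cultures. Alternatives were DESeq2 1.42.0, other scalings, no filter, the 2 groups alone, ranked doses, and fits without each library or culture. Replicates differed by more than sampling noise (chi-square per degree of freedom at least 12.8). Without molecular identifiers, counts bound counting error only. The group-mean edgeR fit at 3 µM against DMSO was run on simulated data without culture differences. The block, slope, culture and slope difference fits were not run on simulated data.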

Additional observations from a re-analysis of the deposited data

How the results depend on the processing

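The direction of all 10 genes at 3 µM held under every alternative run. What changed was how many passed the test. Scaling by library size alone moved the median of all genes at 3 µM from −0.03 to −0.23 and the 4 calls there stood. With the replicate block the count of genes called was 8 at 1.5 µM, 10 at 3 µM, 8 for 1.5 against 1 µM, 9 for 3 against 1.5 µM and 10 for the slope. With the block and without cultures 1, 2 and 3 in turn (chosen after seeing the data), it was 8, 6 and 10 at 1.5 µM, 10, 9 and 10 at 3 µM, 7, 5 and 9 for 3 against 1.5 µM, and 9, 9 and 10 for the slope. For 1.5 against 1 µM it was 4 without culture 1, 0 without culture 2 and 9 without culture 3, and at 1 µM it was 1 (Sparc) without culture 3. Without the block and without culture 2, which leaves 8 libraries, 0 genes were called at 3 µM and 0 for the slope, with adjusted p for Postn, Fbn1, Pcolce and Sparc at 3 µM from 0.117 to 0.227. DESeq2 called 5 genes at 3 µM (Pdgfrb added), as did the fits without culture 1 (Pdgfrb added) and without culture 3 (Mfap4 added), and the fit with no filter called 3 (Pcolce lost). DESeq2 called 1 gene (Sparc) at 1.5 µM and 2 (Postn and Fbn1) for 3 against 1.5 µM. There library size scaling and the fit without culture 3 each called 1 (Postn). Counts over all genes in DESeq2 and in the fits without a culture are not given here.

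Leaving out each of the 12 libraries in turn gave 3 to 4 calls at 3 µM, beside 7500 to 9391 over all genes in either direction. For the slope it gave 3 to 6 (7599 to 9062 over all genes), and at 1.5 µM 0 to 1 (2462 to 5085). For 3 against 1.5 µM it gave 0 to 2 (2962 to 5682). At 1 µM it gave 0 to 0 (3 to 50), as for 1.5 against 1 µM (135 to 1508). Between cultures it gave 9 to 10 (2658 to 5860), and for slope differences 0 to 0 (0 to 0). At 1.5 µM the sign of Lox turned from 0.07 to −0.38 with the block, −0.36 with the block without culture 2, −0.77 with the block without culture 3 and −0.59 without culture 3. Leaving out 1 library, Lox ran from −1.09 (without culture 3 at 1.5 µM) to 0.56 and was also negative, −0.29, without culture 1 in DMSO. At that dose Loxl1 ran from −2.55 to 0.34 and Mfap4 from −3.44 to 1.33, both positive without culture 3 in DMSO alone. At 3 µM Dcn turned from 0.44 to −0.54 with the block, −0.11, −0.32 and −1.16 with the block without cultures 1, 2 and 3, and −0.99 without culture 3. Leaving out 1 library, it ran from −2.20 (without culture 3 at 3 µM) to 1.60, with −0.076 without culture 1 in DMSO. Loxl2 turned from −0.12 to 0.018 and 0.26 without cultures 1 and 2, and ran from −1.26 to 0.35 when 1 library was left out. The causes were not tested. Of the further list counts at 3 µM, those of the adipocyte, endothelial and contractile lists did not move when any 1 library was left out, but without culture 2 in every group they went from 6 to 5, from 7 to 1 and from 6 to 6.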

Other observations

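Of the 14 other fibroblast markers, 4 were above their own DMSO level at 3 µM in culture 3 (Dcn, Prrx1, Twist2 and Dpp4), 2 in culture 2 (Twist2 and Dpp4) and 1 in culture 1 (Dpp4), against 0 of the 10 genes in any culture. The endothelial, immune, adipocyte and contractile lists also had 0 genes above their own DMSO level at 3 µM in any culture. The genes below were chosen after their values were seen. Dcn, which encodes the collagen-binding proteoglycan decorin, stood at 38.7, 219 and 625 CPM in cultures 1, 2 and 3 under DMSO and at 13.9, 115 and 1070 CPM at 3 µM. Cultures 1 and 2 were thus lower at 3 µM and culture 3 was higher. The edgeR log2 change was 0.44 ± 1.72 (adjusted p = 0.838), and −0.54 ± 0.424 with the block (0.28). Twist2, a mesenchymal transcription factor, was at 1.91, 2.13 and 3.99 CPM in DMSO and at 1.41, 9.24 and 18.5 CPM at 3 µM, higher in cultures 2 and 3. With the block it was called higher (1.44, edgeR adjusted p = 0.0148), and on group means it was not (1.85, 0.104). The block call was lost without culture 2 (0.199) or culture 3 (0.119).

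Thbs2, a matricellular thrombospondin, was higher at 3 µM in all cultures. It went from 39.7, 111 and 180 CPM in DMSO to 70.5, 408 and 617 CPM, called with the block (1.51, edgeR adjusted p = 0.000119) and not on group means (1.73, 0.13). Lum, the proteoglycan lumican that resembles decorin, was lower in all cultures, from 13.6, 132 and 412 CPM to 2.82, 17.3 and 193 CPM. It was called with the block only (−1.87, edgeR adjusted p = 0.00331).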
